A study of Komagataella phaffii with 72 samples.

Results

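In Komagataella phaffii making a human protein on methanol, 50 native genes had lower transcript levels in the strain Y-11430 than in both X-33 and Y-48124, for each of 2 secreted products. They were selected on the measured values themselves. The mean log2(TPM + 1) of each strain was taken over its clones, separately for the strains that make rhG-CSF (human granulocyte colony-stimulating factor made in yeast) and rhGH (human growth hormone). TPM scales every library to the same total of transcripts and divides by transcript length. Whether that division suits libraries made from 3′ ends was not tested, which limits comparison of levels between genes. Each of the 4048 genes with a mean of 3 or more in X-33 and Y-48124 was scored by the lower of these strains minus Y-11430, in whichever product this gap was smaller, and the 50 highest scores were kept, out of 5120 native genes in all. The gap between Y-11430 and the other strains is therefore a description of how the genes were picked, and no test is given for it.

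The study compared Y-11430, GS115, X-33, and Y-48124 as hosts, each with rhG-CSF or rhGH, which gives 8 groups of 3 clones and 9 libraries. Y-11430 is the parent. GS115 is a mutagenized descendant of it with a changed HIS4, a gene of histidine synthesis, and needs histidine. X-33 and Y-48124, a banked form of X-33, share the other changes of GS115 and carry a HIS4 allele that differs from those of GS115 and Y-11430, and both grow slowly without histidine. Both also carry a changed RCR2, and X-33 a changed RVB1. All 24 clones carry a product gene under the AOX1 promoter on the vector pPICZ A, and each clone is a separate transformant grown as cultures A, B, and C. Every culture had 24 hr with 4% glycerol and then 24 hr with 1.5% methanol, and no group without a transgene was analysed here. Since cultures repeat a clone, groups were compared over their 3 clones.

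K. phaffii is a methylotrophic yeast. On methanol it turns on a set of very abundant transcripts for alcohol oxidation, formaldehyde use, and peroxisome growth, and the promoter of the alcohol oxidase gene AOX1 is the usual driver of a product gene in this host. The deposited tables identify genes only by GQ67 numbers, and 0 of the 5120 were matched in the gene table used here. The genes are therefore given by identifier without a function. Of the 9 genes that the study names or describes beside an identifier, 0 are members. The study also reports GAS2 as higher and GAS1 as lower in Y-48124 and X-33 than in Y-11430, with both products. It gives no identifier for either gene, so whether GAS2 is a member could not be checked. GQ67_04750, a member, also occurs in a list of the study, by identifier without a name.

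Libraries of 3 kinds stood apart and bear on every value below. First, the selection rule leaves out library X-33 rhGH 12A, whose profile goes against its label. A run of 6 genes, GQ67_03001 to GQ67_03006, was singled out after the values were seen because it is high in Y-11430. The study reports that X-33 and Y-48124 have lost the killer plasmids of Y-11430, which hold the genes that differ most between them. Whether this run lies on those plasmids was not tested. The mean log2(TPM + 1) of the run was 5.47 in library 12A, between 5.37 and 6.65 in Y-11430 rhGH libraries, and between 0.30 and 1.93 in the other 8 X-33 rhGH libraries. The profile of library 12A over the 4048 genes correlated best with a Y-11430 rhGH library (Pearson's r = 0.979).

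Y-11430 rhG-CSF clone 16 was the second. The same run of genes averaged 3.19 in clone 16, against 5.95 and 6.30 in its sister clones 12 and 13, and between 0.13 and 1.37 in the 3 GS115 rhG-CSF clones. Its profile correlated with GS115 clones at 0.853 to 0.916 and with its sister clones at 0.845 and 0.852. With rhG-CSF clones of X-33 the values were 0.845 to 0.861, and with those of Y-48124 0.830 to 0.853. The rhG-CSF transgene of clone 16 took 6.98% of TPM, against 1.29% in clone 12 and 0.652% in clone 13. The third was a split among the Y-11430 rhGH cultures. Libraries 8A, 8C, and 22A correlated with each other at 0.964 to 0.983 and with the other 6 at 0.894 to 0.931, while those 6 correlated with each other at 0.954 to 0.976. The split crosses clones 8 and 22, and what sets these libraries apart was not tested. In all 72 libraries the transgene of the labelled product was above the other one, and total counts ranged from 386665 to 33003281 with a median of 1425890.5.

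The summed level of the 50 genes showed the same order in both products, with GS115 below Y-11430 and Y-11430 below the other strains. The rule selected for Y-11430 below X-33 and Y-48124, and the sum rests mostly on the few most abundant members. In rhGH strains, they took 9.37% ± 0.863 of TPM in Y-11430, 1.73% ± 0.216 in GS115, 15.7% ± 0.899 in X-33, and 17.1% ± 0.847 in Y-48124 (SD, n = 3 clones each). In rhG-CSF strains, the share was 8.87% ± 6.93 in Y-11430, 1.84% ± 0.473 in GS115, 13.3% ± 1.09 in X-33, and 15.2% ± 0.446 in Y-48124. The Y-11430 rhG-CSF share had an SD almost as large as its mean because clone 16 stood at 0.972%, against 11.7% in clone 12 and 13.9% in clone 13. Without clone 16 it was 12.8% ± 1.57 (n = 2 clones), next to the X-33 value.

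**Figure D1:**
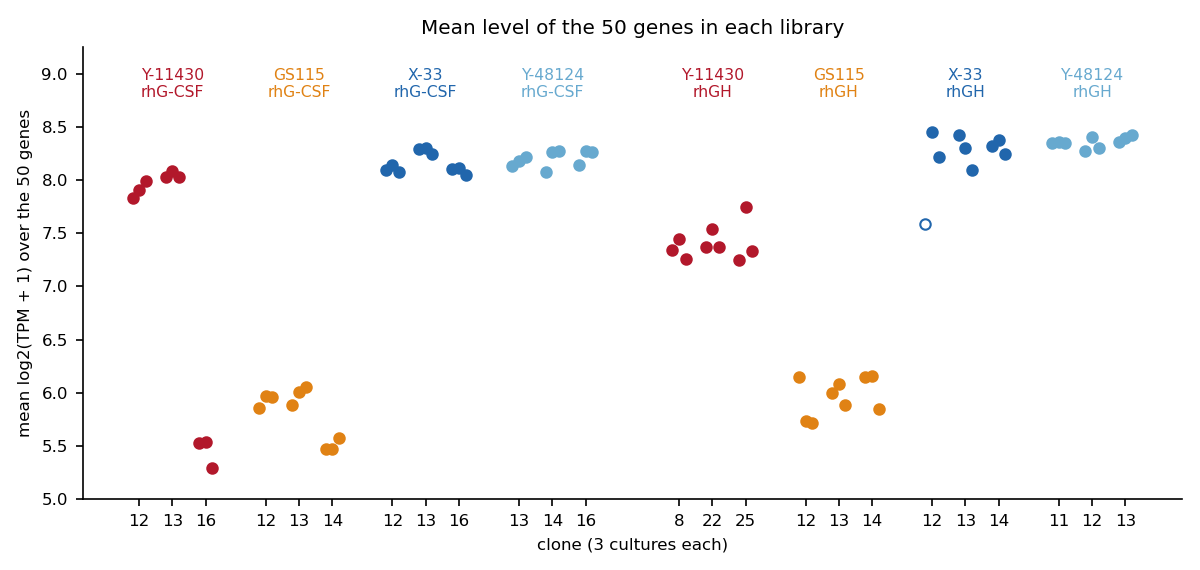
Mean log2(TPM + 1) over the 50 genes on the vertical axis for each of the 72 libraries, by strain, product, and clone on the horizontal axis (3 points per clone; the open point is library X-33 rhGH 12A). Clone 16 of Y-11430 rhG-CSF lies between 5.29 and 5.54, below clones 12 and 13 at 7.83 to 8.08, and Y-11430 rhGH libraries lie between 7.25 and 7.75, below all X-33 and Y-48124 rhGH libraries except 12A at 7.59.

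The members were more abundant than most genes. Their median log2(TPM + 1) in X-33 and Y-48124 was 7.92, against 5.48 over the 4048 genes, with a range of 3.38 to 15.3. Of the 50 most abundant genes in those strains, 8 were members, and 7 members reached a mean of 12 or more, as did 29 of all 4048. The most abundant was GQ67_00926 and the least abundant GQ67_03018.

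In rhG-CSF strains the gap rested mainly on clone 16. Over the 50 genes the median of Y-11430 minus the mean of X-33 and Y-48124 was -0.89 on the log2(TPM + 1) scale, and -0.12 without clone 16, with 14 genes then above 0. Over all 4048 genes the corresponding medians were -0.02 and 0.00. Clone 16 was below both sister clones in 47 of 50 members and in 45.38% of all 4048 genes, in the members by a median of 2.50 from their mean (difference -2.50, against -0.05 over all 4048 genes). The selection used the mean of the 3 clones, and the part of clone 16 in it was not tested beyond leaving it out.

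Without clone 16 the same rule kept 14 of the 50 genes. These were GQ67_00350, GQ67_00925, GQ67_00926, GQ67_01487, GQ67_01833, GQ67_02735, GQ67_02736, GQ67_02965, GQ67_03018, GQ67_03365, GQ67_04132, GQ67_04191, GQ67_04720, and GQ67_05151. The other 36 were then outside the 50 highest scores. Leaving out any other single clone kept 40 to 48 genes. Without clone 16 the rhG-CSF gap was above 0 in 32 of 50 members (35.94% of all 4048 genes) and above 0.5 in 6 of 50 (1.61%).

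**Figure D2:**
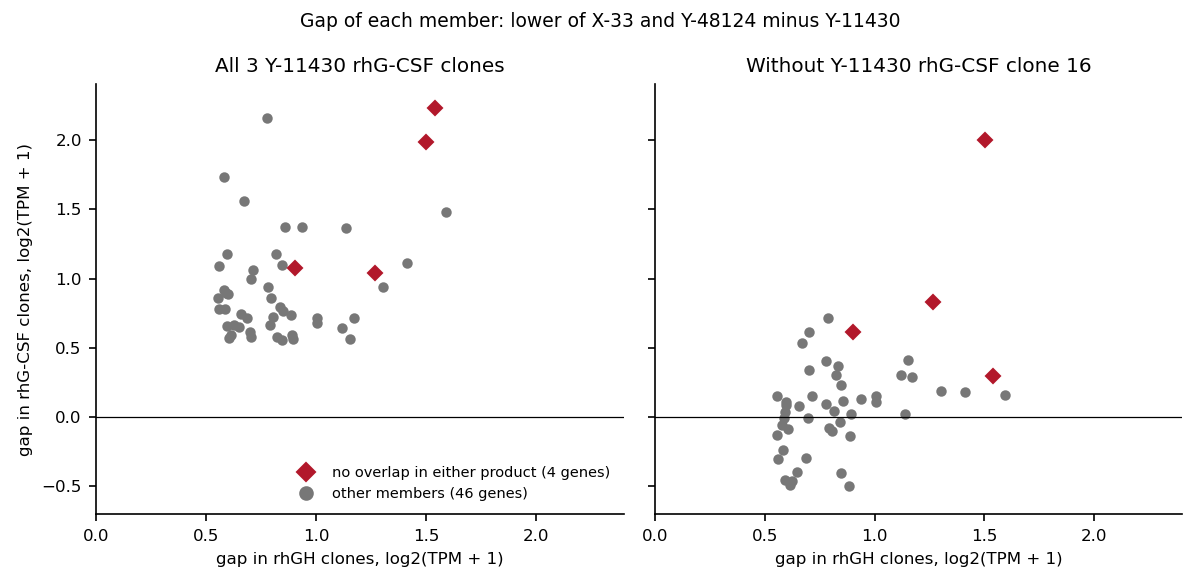
Gap of each of the 50 genes (lower of X-33 and Y-48124 minus Y-11430, in log2(TPM + 1)) in rhGH clones on the horizontal axis and in rhG-CSF clones on the vertical axis, with all clones on the left and without clone 16 on the right. Diamonds are the 4 genes whose Y-11430 clones lie below all X-33 and Y-48124 clones in both products; 6 of the 50 genes keep an rhG-CSF gap above 0.5 on the right.

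In rhGH strains the gap was spread more evenly over the clones. Every Y-11430 clone lay below every X-33 and Y-48124 clone in 32 of 50 members, a condition met by 3.88% of the 4048 genes, and in 8 of 50 members in rhG-CSF strains, where the share was 2.35% of all genes. In both products 4 of 50 members met it, against 0.272% of all genes, namely GQ67_00925, GQ67_00926, GQ67_03018, and GQ67_03365. The count was also 4 without clone 16, when 0.321% of all genes met it. The rule favours such genes, so nothing is read from these counts beyond the size of the overlap.

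The split among the Y-11430 rhGH cultures gave opposite patterns in different members, which the clone means do not show. In 17 of 50 members libraries 8A, 8C, and 22A were all below the other 6 (15.2% of all 4048 genes), and in 16 they were all above (18.4%). In the remaining 17 the libraries overlapped. GQ67_00432 is of the first kind, with 10.3, 10.3, and 10.3 log2(TPM + 1) in 8A, 8C, and 22A, and between 13.0 and 13.7 in the other 6, against 12.5 to 13.3 in the 17 X-33 and Y-48124 rhGH libraries. Its 6 other Y-11430 libraries overlapped those strains. In 4 of these 17 members the median of the 6 was at or above the median of X-33 and Y-48124.

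GQ67_01865 is of the second kind, with 9.31, 9.50, and 9.39 in 8A, 8C, and 22A, and between 6.55 and 7.87 in the other 6, against 8.90 or more in the X-33 and Y-48124 libraries. Here the 3 libraries overlapped X-33 and Y-48124 and the 6 did not. In 13 of the 16 members of this kind, 8A, 8C, and 22A all reached the range of those strains. Without the 3 libraries the rule kept 33 of the 50 genes. Without clone 16 as well it kept 11.

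Read library by library, few members were low throughout Y-11430. All 9 Y-11430 rhGH libraries were below all 17 X-33 and Y-48124 libraries in 4 of 50 members, GQ67_00350, GQ67_02680, GQ67_03365, and GQ67_05041 (0.198% of all 4048 genes). All 9 Y-11430 rhG-CSF libraries were below the 18 others in 2 of 50, GQ67_03018 and GQ67_03365 (0.0741% of all genes). GQ67_03365 was the only gene of the 4048 that met both conditions (0.0247%).

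GQ67_03365 had 5.46, 5.38, and 4.80 log2(TPM + 1) in Y-11430 rhG-CSF clones 12, 13, and 16, against 6.03 to 6.66 in the 6 X-33 and Y-48124 clones. In rhGH strains it had 5.39, 5.03, and 5.13 in Y-11430 clones 8, 22, and 25, against 6.42 to 6.72. The Y-11430 clones were below X-33 and Y-48124 in both products, also without clone 16. In GS115 it had 5.75, 6.61, and 5.16 with rhG-CSF and 5.73, 6.33, and 5.84 with rhGH. GS115 with rhG-CSF overlapped Y-11430 as well as X-33 and Y-48124, and with rhGH it lay between them.

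GQ67_03018 was the only member whose GS115 clones all stood above every X-33 and Y-48124 clone in both products. It had 1.68, 1.08, and 1.42 in Y-11430 rhG-CSF clones and 1.60, 1.88, and 1.94 in Y-11430 rhGH clones. GS115 was at 5.57, 5.78, and 4.80 with rhG-CSF and at 5.31, 5.53, and 5.72 with rhGH, and X-33 and Y-48124 were between 2.44 and 4.08. The clones thus fell at 3 levels without overlap, lowest in Y-11430 and highest in GS115. Single rhGH libraries did overlap, with Y-11430 up to 2.49 and X-33 and Y-48124 down to 1.68. This gene was the least abundant member in X-33 and Y-48124, and low counts limit its precision. Clone 16 stood among its sister clones here.

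GQ67_00926 had the largest score and is one of 3 members with consecutive identifiers. Its levels were 14.9, 14.9, and 9.09 in Y-11430 rhG-CSF clones 12, 13, and 16, against 14.9 to 15.8 in X-33 and Y-48124. With rhGH they were 13.2, 13.6, and 14.1 in Y-11430 clones 8, 22, and 25, against 15.0 to 15.4. Clones 12 and 13 lay just under the lowest of the other strains, while the rhGH clones were further below. GS115 was at 8.35 to 9.30 over its 6 clones, near clone 16.

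The neighbours of GQ67_00926 by number differed from each other in GS115. GQ67_00927 resembled it, with 5.71, 5.66, and 5.82 in Y-11430 rhGH clones, 3.55, 3.33, and 3.25 in GS115 rhGH clones, and 6.58 to 6.91 in X-33 and Y-48124. GQ67_00925 had 5.35, 5.56, and 5.76 in Y-11430 rhGH clones, 5.70, 5.46, and 5.41 in GS115 rhGH clones, and 6.18 to 6.67 in X-33 and Y-48124. So GS115 lay well below Y-11430 for GQ67_00927 and overlapped it for GQ67_00925. The numbers follow the annotation, and no coordinates were used here.

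**Figure D3:**
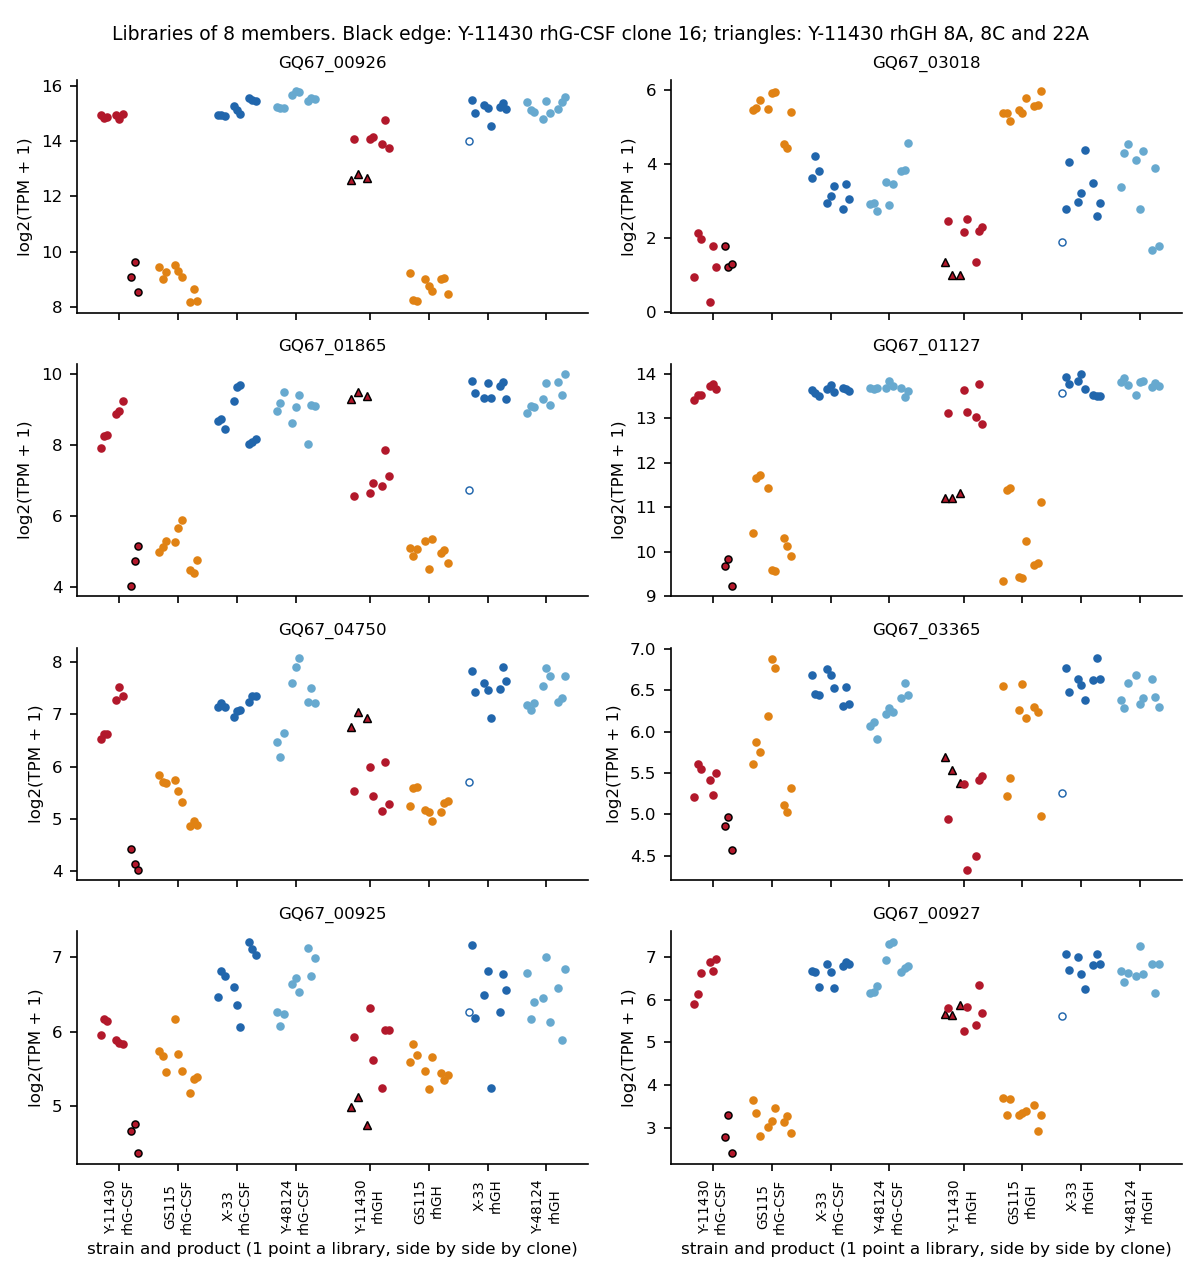
Level of 8 members in log2(TPM + 1) on the vertical axes for each library by strain and product, 3 adjacent points per clone. Y-11430 rhGH libraries 8A, 8C, and 22A (triangles) lie below the other 6 for GQ67_00926 and GQ67_01127 and above them for GQ67_01865 and GQ67_04750, and clone 16 (black edge) falls to 9.09 for GQ67_00926 but stays among its sisters at 1.42 for GQ67_03018.

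Of the remaining leading members, GQ67_01865, GQ67_01127, and GQ67_04750 depended on clone 16 in rhG-CSF strains. GQ67_01865 had 8.17, 9.03, and 4.64 in Y-11430 rhG-CSF clones 12, 13, and 16, against 8.10 to 9.53 in X-33 and Y-48124. GQ67_01127 had 13.5, 13.7, and 9.58 in the same clones, against 13.6 to 13.8. GQ67_04750 had 6.59, 7.39, and 4.19, against 6.43 to 7.86. In each of these at least one of clones 12 and 13 overlapped X-33 and Y-48124.

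With rhGH, all 3 genes had every Y-11430 clone below the others. GQ67_01865 had 8.45, 7.66, and 7.29 in Y-11430 clones 8, 22, and 25, against 9.04 to 9.74. GQ67_01127 had 11.9, 12.7, and 13.2, against 13.5 to 13.9. The order of the clones was opposite in the 2 genes, with clone 8 highest in the first and lowest in the second. Clone 8 holds cultures from both sides of the split. Libraries 8A, 8B, and 8C had 9.31, 6.55, and 9.50 for GQ67_01865, and 11.2, 13.1, and 11.2 for GQ67_01127. GQ67_04750 had 6.44, 6.12, and 5.51, against 7.16 to 7.72.

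Adjacent identifiers were also found for GQ67_02679 with GQ67_02680 and GQ67_02735 with GQ67_02736, which makes 7 members with such a neighbour. GQ67_02736 had 11.98, 12.06, and 6.75 in Y-11430 rhG-CSF clones 12, 13, and 16, against 12.03 to 13.86, and GQ67_02735 had 8.91, 8.53, and 7.43, against 8.96 to 9.43. Both were lower in clone 16 than in its sisters, the first by far more. GQ67_02679 had 14.6, 14.2, and 13.4 in Y-11430 rhGH clones 8, 22, and 25, against 14.4 to 15.2, whereas GQ67_02680 had 7.66, 7.53, and 7.47, against 8.00 to 8.37. The pair differed in that GQ67_02679 overlapped the other strains and GQ67_02680 did not. By library, GQ67_02679 was at 15.0 to 15.1 in 8A, 8C, and 22A. The other 6 Y-11430 rhGH libraries were at 13.1 to 13.8, below all 17 X-33 and Y-48124 rhGH libraries.

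At the edge of the selection the gaps were small. The last 2 genes inside, GQ67_00359 and GQ67_00548, had a score of 0.56 each, and the first 2 outside, GQ67_03361 and GQ67_01062, had 0.55 and 0.54. The members lay between 0.56 and 1.54.

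The edgeR quasi-likelihood fit on counts summed by clone, with Benjamini-Hochberg adjustment over all genes, gives the size of the gap against the spread between clones. It is a description here, since the same contrast chose the genes. In rhG-CSF strains 3 of 50 members were called lower in Y-11430 (adjusted p under 0.05), against 0.238% of 5045 genes, and in rhGH strains 15 of 50, against 1.63%. Without clone 16 the counts were 1 of 50 (0.0198% of all genes) and 31 of 50 (3.23%). Clone 16 is not part of the rhGH contrast, but all groups share the estimate of spread in this fit. Leaving out another clone gave between 2 and 7 with rhG-CSF (7 without Y-11430 clone 13, 6 without clone 12, and 5 without GS115 clone 13 or 14), and with rhGH the count was 5 without Y-11430 clone 8 or clone 22. The 3 called in rhG-CSF strains were GQ67_00925, GQ67_03018, and GQ67_03365, all of which were also called in rhGH strains. GQ67_03018 was the only member still called in rhG-CSF strains without clone 16, with a log2 fold change of -2.43 ± 0.437 (SE), and in rhGH strains its value was -1.96 ± 0.351.

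**Figure D4:**
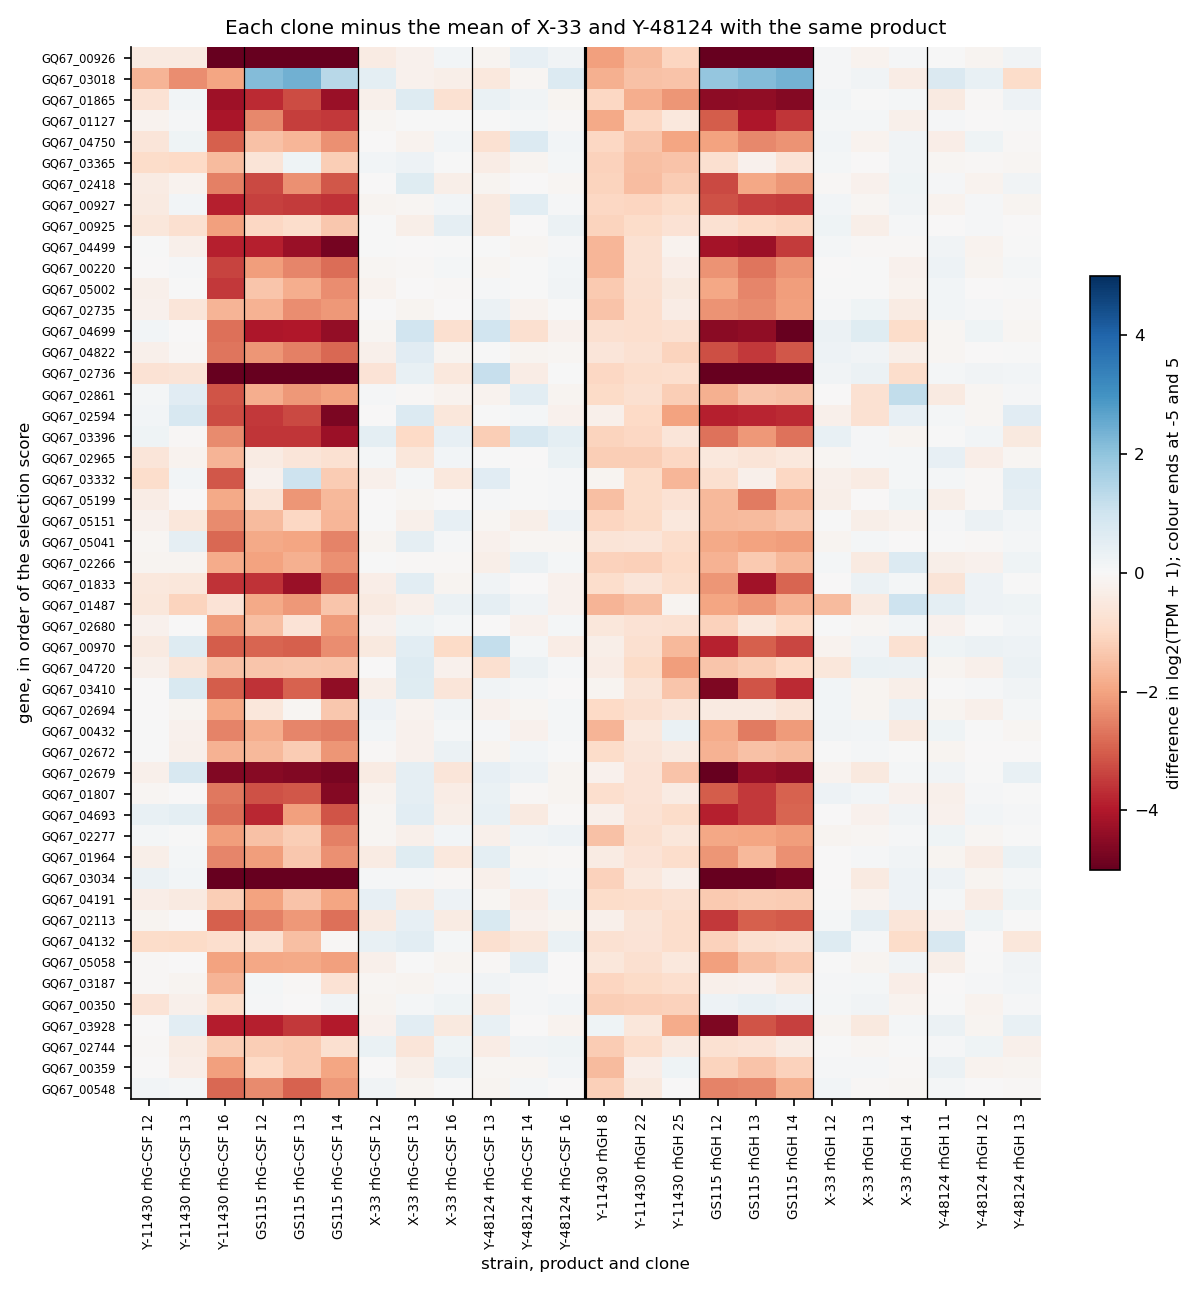
Each of the 50 genes (rows, by score) in each of the 24 clones (columns, by product and strain), as the difference in log2(TPM + 1) from the mean of X-33 and Y-48124 with the same product; red is lower and blue higher. The column of Y-11430 rhG-CSF clone 16 looks like the GS115 columns, clones 12 and 13 are near white, and the 3 Y-11430 rhGH columns are pale red, with GQ67_03018 alone at about 2 in GS115.

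GS115 libraries were not used in the selection, and the GS115 mean was below that of Y-11430 for most members. The rule did use clone 16, which correlated with GS115 clones at 0.853 to 0.916 and with X-33 rhG-CSF clones at 0.845 to 0.861. Only GS115 rhG-CSF clone 13 (0.853) lay in the X-33 range, and the other GS115 clones were at 0.881 or more. Low GS115 values among the members are therefore not independent of the selection. The GS115 mean was lower than that of Y-11430 in 42 of 50 members with rhGH and in 41 of 50 with rhG-CSF. The median differences over the 50 were -1.29 and -1.26 on the log2(TPM + 1) scale. Over all 4048 genes the medians were 0.28 and 0.19. Every GS115 clone was below every Y-11430 clone in 37 of 50 members with rhGH (22.4% of all genes) and in 8 of 50 with rhG-CSF (10.3%), where clone 16 lay near GS115. Among the 14 genes that the rule keeps without clone 16, the median of GS115 minus Y-11430 was -0.28 with rhGH and 4 of 14 were lower by more than 1, against 28 of 50 members and 348 of all 4048 genes. Over the other 36 members the median was -1.52 and the count 24. With rhG-CSF and without clone 16, the median was -0.94 over the 14 genes and -2.39 over the 36.

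The counts gave a similar picture. In edgeR, 37 of 50 members were called lower in GS115 than in Y-11430 with rhGH, against 25.8% of 5045 genes, and 37 of 50 with rhG-CSF, against 22% of genes. Relative to X-33 and Y-48124, 48 of 50 were called lower in GS115 with rhGH (27.5% of genes) and 45 of 50 with rhG-CSF (27.2%). The members called higher in GS115 than in Y-11430 numbered 2 with rhGH (25.6% of genes) and 1 with rhG-CSF (21.4%). Against X-33 and Y-48124 there was 1 with rhGH (31.9% of genes) and 1 with rhG-CSF (33.9%). These contrasts were added after the data were seen and share the samples that chose the genes, so they are given as counts beside their background.

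Placed on a scale with Y-11430 at 0 and the mean of X-33 and Y-48124 at 1, the median position of GS115 was -1.54 with rhGH and -1.43 with rhG-CSF (SD over the 3 GS115 clones 0.0635 and 0.172). It was -3.08 with rhG-CSF when clone 16 was left out. Y-11430 minus the mean of X-33 and Y-48124, which sets the scale, then had a median of -0.12. In 14 of 50 members it was above 0, which reverses the scale, so nothing is read from the -3.08. GS115 lay between Y-11430 and both other strains in 6 of 50 members in each product, against 4.52% of all 4048 genes with rhG-CSF and 1.88% with rhGH.

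The members furthest below on this scale, which divides by the gap of Y-11430, were GQ67_03034, GQ67_04693, and GQ67_04699. In log2(TPM + 1) with rhGH, GQ67_02736 (-6.95) and GQ67_00926 (-6.48) lay further below X-33 and Y-48124 in GS115 than GQ67_03034 (-5.42). GQ67_03034 had 3.53, 4.86, and 5.08 in GS115 rhGH clones, 8.76, 9.38, and 9.65 in Y-11430 rhGH clones, and 9.46 to 10.2 in X-33 and Y-48124. GQ67_04693 had 2.43, 2.82, and 3.45 in GS115, 6.09, 5.63, and 5.43 in Y-11430, and 6.13 to 6.53 in X-33 and Y-48124. In both genes Y-11430 was close to X-33 and Y-48124 beside the distance to GS115. GQ67_04699 had 1.98, 2.02, and 1.39 in GS115, 5.68, 5.65, and 5.69 in Y-11430, and 5.57 to 7.07 in X-33 and Y-48124.

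At the other end were GQ67_03018, described above, GQ67_00350, and GQ67_03187. GQ67_00350 had 8.11, 8.24, and 8.10 in GS115 rhGH clones, 6.64, 6.67, and 6.72 in Y-11430 rhGH clones, and 7.70 to 8.04 in X-33 and Y-48124. With rhGH, GS115 was the highest strain for this gene and Y-11430 the lowest, without overlap. With rhG-CSF it had 7.88, 7.81, and 8.00 in GS115, 7.15, 7.57, and 6.91 in Y-11430, and 7.43 to 8.05 in X-33 and Y-48124, which overlapped both. GQ67_03187 had 7.25, 7.29, and 6.96 in GS115, 6.43, 6.55, and 6.67 in Y-11430, and 7.17 to 7.63 in X-33 and Y-48124, with the mean of GS115 in between and its clones overlapping X-33 and Y-48124.

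**Figure D5:**
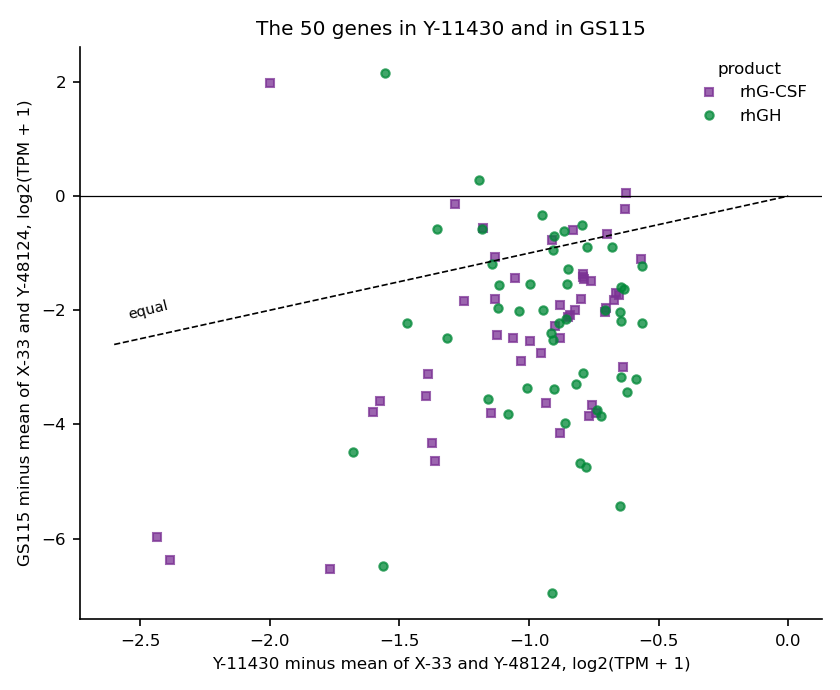
Each of the 50 genes with rhG-CSF (squares) and rhGH (circles), as Y-11430 minus the mean of X-33 and Y-48124 on the horizontal axis and GS115 minus that mean on the vertical axis, in log2(TPM + 1). Most points lie below the dashed line of equal difference, with 42 of 50 genes lower in GS115 than in Y-11430 with rhGH, and GQ67_03018 stands alone at the upper left.

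The selection left out the library with the label X-33 rhGH 12A. It lay within the range of the 9 Y-11430 rhGH libraries in 48 of 50 members, where 86.9% of all 4048 genes did, and below all 8 other X-33 rhGH libraries in 30 of 50, against 9.91% of all genes. The median difference from the other X-33 libraries was -0.81 over the members and 0.06 over all genes. The members were chosen for levels in those other X-33 libraries above Y-11430, which does not hold for all genes. Nothing is therefore read from these counts and differences.

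Contrasts other than the one that chose the genes were tested in the same edgeR fit. The score takes the lower of X-33 and Y-48124 and so favours genes on which they agree, and the values of Y-11430, X-33, and Y-48124 all entered it, so nothing is read from their counts for the members. The product contrast in GS115 uses libraries that the selection did not. Between X-33 and Y-48124, 0 of 50 members were called with either product, and 0 of 5045 genes (0%). At an unadjusted p under 0.05 there were 0 members with each product, and 136 genes with rhG-CSF and 135 with rhGH. DESeq2 and limma also called 0 members and 0 genes. The fitted log2 fold changes of members ranged from -0.72 to 0.49 with rhG-CSF and from -0.47 to 0.46 with rhGH, with a median SE of 0.44 in both.

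The comparison of rhG-CSF with rhGH called 0 of 50 members in each strain. In GS115, 0 of 5045 genes were called (0%), with 1 member and 182 genes at an unadjusted p under 0.05. X-33 had 5 called genes (0.0991%), with 4 members and 606 genes at that p, and Y-48124 had 0 (0%), with 1 member and 383 genes. DESeq2 called 0 genes in GS115, 87 in X-33, and 18 in Y-48124, and limma called 0, 20, and 0, in each case without a member. Without Y-11430 rhG-CSF clone 16, edgeR called 2 members lower with rhG-CSF in X-33, GQ67_02113 and GQ67_02736. The difference between the product effect in GS115 and that in the other strains called 0 genes (0%), with 3 members and 467 genes at an unadjusted p under 0.05, and DESeq2 called 28 genes and limma 0, again without a member.

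In Y-11430 the product comparison called 546 genes (10.8%) and 0 of 50 members, with 4 members and 1320 genes at an unadjusted p under 0.05. DESeq2 called 707 genes and limma 352, both without a member. This contrast turned on clone 16, since 8 of 50 members were called higher with rhG-CSF without it, against 2.49% of 5053 genes. The count was 2 without clone 13 and 1 without GS115 rhG-CSF clone 14. The 8 were GQ67_00926, GQ67_02266, GQ67_02418, GQ67_02694, GQ67_02861, GQ67_03187, GQ67_05041, and GQ67_05058. Clones 12 and 13 averaged above the Y-11430 rhGH clones in 43 of 50 members, by a median of 0.69, against -0.02 over all 4048 genes. The selection used low values in both groups of Y-11430 clones, so the size of this difference is not independent of it.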

How the data were processed

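Libraries were made by the authors with a 3′ DGE method and quantified with Salmon (0.9.1) on 1 transcript per gene, and bedtools 2.26.0 is also named in the submitters' processing notes. The authors deposited raw counts, whole numbers for each gene, and how molecular identifiers were treated is not given in the sources used here. A second deposited table holds log2 levels, which the authors computed as log2(TPM + 1). Both tables hold 5120 native genes and 3 transgenes in 72 libraries. Their columns carry the prefix WT where the sample titles have Y-11430, and these were matched by elimination, since WT is the only prefix that is no title, Y-11430 is the only strain without a prefix, and the rest of each name is identical. No other label ties them together. An exchange of cultures between labels was not tested.

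The selection used clone means of log2(TPM + 1) without library X-33 rhGH 12A. The members, lists, and tests were chosen with earlier results of these data known. Named genes were those with the largest scores, those at the edge of the selection, those at the extremes of level and of GS115 position, members with adjacent identifiers, and members called in a contrast. Other genes were singled out after their values were seen.

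Counts were summed by clone and fitted over the 24 clones with a mean per group (edgeR 4.0.16 in R 4.3.3, TMM, filterByExpr, quasi-likelihood test, Benjamini-Hochberg over native genes, called at an adjusted p under 0.05). Summed counts weigh cultures by depth, so a fitted fold change can differ from a difference of clone means. All groups share the estimate of spread, so leaving out a clone can change calls in contrasts that do not hold it. Alternatives were DESeq2 size factors, DESeq2 (1.42.0), limma (3.58.1) on log2(TPM + 1), no filter on low counts, normalization without the transgenes, cultures as replicates, and each clone left out in turn. Alternatives without the Y-11430 rhGH libraries that stood apart were added after the data were seen. Cultures of a clone differed by more than sampling noise in all 72 pairs (chi-square per degree of freedom 2.04 to 81.7). The letters A, B, and C did not pair samples across groups, with a median correlation of deviations of 0.008. Total counts limit the precision of low genes, and the p-values measure the spread between clones.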

Additional observations from a re-analysis of the deposited data

Results flagged for a closer look

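In groups of 9 libraries, the mean level of the members and the levels of 8 leading members were searched for a library far from the others. Of 72 groups, 6 held one, and chance gives about 3.6. The searches share libraries, and the members were chosen with X-33 rhGH 12A left out, so nothing is read from the excess. Of the 6, 4 were in library X-33 rhGH 12A. Its mean log2(TPM + 1) over the members was 7.59, against 8.10 to 8.46 in the other X-33 rhGH libraries. GQ67_01865 was at 6.74 there, against 9.30 to 9.80, GQ67_04750 at 5.70, against 6.92 to 7.90, and GQ67_03365 at 5.25, against 6.39 to 6.89. GQ67_01127 was at 13.52 in Y-48124 rhGH 12A, against 13.71 to 13.90 in the rest of its group. GQ67_00925 was at 5.24 in X-33 rhGH 13C, against 6.19 to 7.16.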

How the results depend on the processing

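The number of members called depended mostly on what counted as a replicate and on single clones. With the cultures as replicates, which treats repeats of a clone as independent, 11 members were called for product in Y-11430, 4 in X-33, 2 in Y-48124, and 2 for the difference of GS115, and 26 with rhG-CSF and 38 with rhGH for Y-11430 against X-33 and Y-48124. With the culture letter as a replicate block these counts were 11, 4, 1, 2, 26, and 38, and the letters did not pair samples (7 of 84 correlations above 0.1). DESeq2 called 7 for Y-11430 with rhG-CSF. Leaving out each clone in turn gave 0 to 8 members for product in Y-11430, 0 to 2 in X-33, 1 to 7 for Y-11430 with rhG-CSF, and 5 to 31 with rhGH. The rule kept 14 to 48 genes when a clone was left out, 29 from the rhGH gap alone, 18 from the rhG-CSF gap alone, and 33 without Y-11430 rhGH 8A, 8C, and 22A, which gave 1 call for product in Y-11430. The median position of GS115 was -3.08 with rhG-CSF without clone 16, where the scale is reversed in 14 of 50 members, so nothing is read from it. With rhGH it was -1.47 on log2(CPM + 1), -1.38 without 8A, 8C, and 22A, and -1.62 to -1.52 when a GS115 clone was left out. The causes were not tested. The 560 fold changes of single genes recomputed were all of leading members in Y-11430 against X-33 and Y-48124. No direction was reversed, and 22 moved by more than their standard error. That contrast chose these genes, so nothing is read from the unchanged direction. Depth limits the low members most, since total counts went down to 386665.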

Other observations

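Cultures of one clone varied together for some members. Over 71 libraries, each taken as its deviation from its clone mean, the median correlation between 2 members was 0.08, against 0.04 between any 2 of the 4048 genes. Correlations above 0.75 made up 3.35% of member pairs and 0.0802% of all pairs, and they joined 11 members into one group, GQ67_00220, GQ67_00359, GQ67_00432, GQ67_00548, GQ67_00926, GQ67_01127, GQ67_02277, GQ67_02744, GQ67_03034, GQ67_04499, and GQ67_05002. The points share libraries, and abundant genes are measured with less counting error. The median correlation within this group was 0.75, which is not independent of the threshold that joined it. Over the 53 libraries of strains other than Y-11430 it was 0.29 (range -0.52 to 0.96). Over the 35 libraries of X-33 and Y-48124 it was 0.61 (-0.31 to 0.89). All 11 are among the members with 8A, 8C, and 22A below the other Y-11430 rhGH libraries. Those libraries are among the 71 used for joining, so such patterns are not independent of the groups. The same threshold joined 2 further groups. One held 9 members, GQ67_00970, GQ67_01964, GQ67_02113, GQ67_02418, GQ67_02679, GQ67_02861, GQ67_03365, GQ67_03410, and GQ67_03928, of which 7 had 8A, 8C, and 22A above the other Y-11430 rhGH libraries. The other held GQ67_02594, GQ67_03332, and GQ67_04750, all 3 of which had them above.

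In X-33, 4 members had an unadjusted p under 0.05 for rhG-CSF against rhGH, and all were lower with rhG-CSF. GQ67_02736 had 12.03, 13.06, and 12.19 log2(TPM + 1) in X-33 rhG-CSF clones, against 14.14, 14.23, and 13.09 in X-33 rhGH clones. Its adjusted p was 0.36 in edgeR, and 0.0465 without Y-11430 rhG-CSF clone 16. The others were GQ67_00970, GQ67_01964, and GQ67_02113, with an adjusted p between 0.26 and 0.32 in edgeR, and 0.0473 for GQ67_02113 without that clone.

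The 9 genes that the study names or describes beside an identifier were set beside the members. Against Y-11430, GS115 had 2 of the 9 called higher and 3 lower with rhG-CSF in edgeR, and 2 higher and 2 lower with rhGH. Among these 9 the nearest to the selection was YDL218W, at rank 122 with a score of 0.33.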
